A study of Oncorhynchus mykiss with 6 samples.

Results

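The deposited small RNA table of rainbow trout (Oncorhynchus mykiss) liver holds 23 predicted small RNAs of 15 to 19 nt, out of 450 predicted rows and 1427 rows in all. They were chosen by a name that starts with PC and by sequence length, a rule that uses no measured values. Earlier results of these data were known when they were chosen. The livers came from juvenile wild-type fish whose strain is given as Walbaum, in 2 groups: 3 control libraries, numbered 3, 4 and 6, and 3 libraries from fish fasted for 4 days, numbered 3, 4 and 5. The labels say nothing of how the control fish were fed. Values of a group are given below in the order of these numbers. The comparison addresses how a short fast bears on the small RNAs of the liver. The labels do not state whether 1 library is 1 fish. The p-values therefore describe how these particular libraries vary, and that variation may be technical.

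Animal miRNAs are cut from hairpin transcripts by Drosha and Dicer, and the strand that enters Argonaute recognises its targets mainly through its seed, bases 2 to 8. The labels 5p and 3p name the arm of the hairpin from which a sequence was predicted to come. Libraries of small RNA also hold trimmed or tailed miRNAs and pieces of other cellular RNAs, and a predicted name does not tell these apart. No trout genome was used here, so position, gene context and the class of RNA behind each sequence are not given.

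The lower limit of the range was nearly empty. Of the 23 sequences 15 were 19 nt long, 7 were 18 nt, 1 was 17 nt and 0 were 15 or 16 nt. The 7 members with the largest counts, which are also those with enough counts to test, are printed below with the single 17 nt member, 5′ to 3′ as DNA letters, with the seed in capitals, because the results turn on them.
PC-5p-171_12656: cTCGATCCaagcttttgt
PC-5p-637_2231: cCGTGGACgttcccgtgg
PC-5p-1386_780: tGGAGTGTgacaatggaaa
PC-3p-1631_633: aAGACACTgtaaaactagg
PC-3p-9854_63: cTGGTCGGgctcggccccc
PC-5p-4744_165: cTTGTCTGagggtcgctt
PC-3p-6947_100: aATCAGTGatgggataact
PC-3p-19930_24: tATTGAAAgtcagccct

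The 23 members had 22 different seeds. The shared one, AGACACT, belonged to PC-3p-1631_633 and to the rare PC-5p-75097_4 (4 counts in all).

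The members were few but held most of the predicted counts when the 6 libraries were summed. They made up 5.11% of the predicted rows and 61.9% of the counts of predicted rows summed over the 6 libraries, against 34.1% for the 412 predicted rows of 20 to 24 nt and 3.99% for the 15 of 25 to 32 nt. Library by library, the members held 5857, 440.5 and 3039 counts in the controls and 8400.5, 2362.5 and 4693 after fasting. The predicted rows of 20 to 24 nt held 5243, 920.1 and 3038 in the controls and 1673, 1118 and 1655 after fasting. In control replicate 4 the members thus held fewer counts than those rows, and in control replicate 6 about as many. In the whole table the members held 0.195% of the counts. PC-5p-171_12656 alone had 18782 counts, which was 75.8% of the members' counts and 46.9% of those of all predicted rows, and it ranked 45 among all rows of the table. PC-5p-637_2231 followed with 2249 counts and PC-5p-1386_780 with 1744, and these 3 together held 91.9% of the members' counts. At the other end 11 members had fewer than 10 counts over all 6 libraries, between 1.67 and 7 each and 40.2 together, and another 5 had between 13 and 42.

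**Figure D1:**
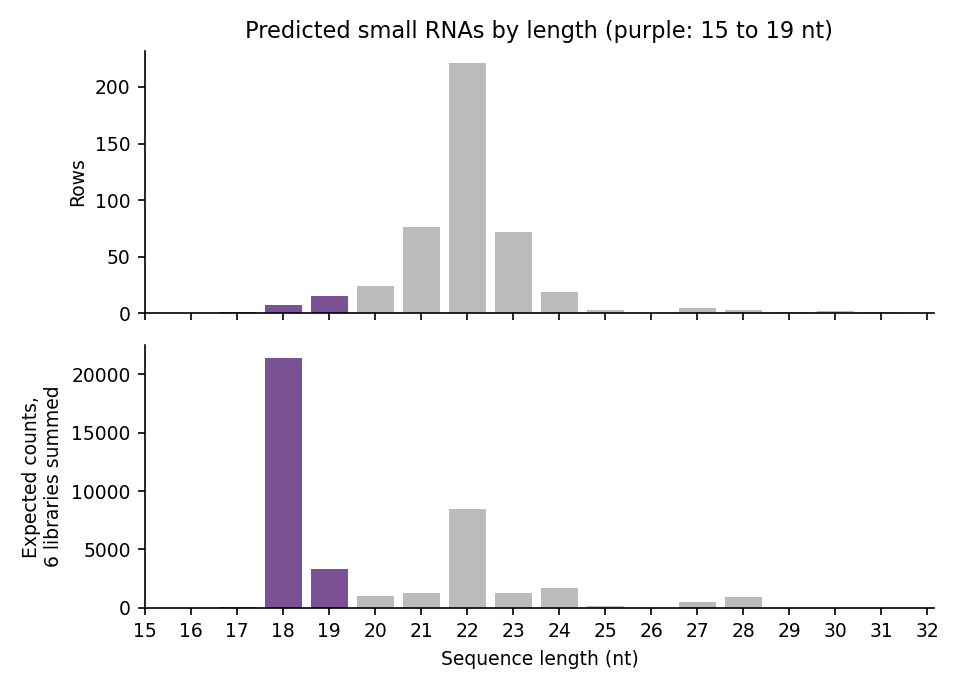
Number of predicted rows (upper panel) and their expected counts summed over the 6 libraries (lower panel) by sequence length in nt, with the members in purple. Rows peak at 22 nt with 221, while counts peak at 18 nt with 21416, most of them from a single sequence.

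Across the length limit the longer side had more rows and fewer counts. Just inside it, the 15 rows of 19 nt held 3334 counts, with PC-5p-1386_780 and PC-3p-1631_633 (676 counts) the most abundant. Just outside, the 24 predicted rows of 20 nt held 979.8 counts, led by PC-5p-2335_401 with 696 counts and PC-5p-11727_50 with 64.

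By base composition the members had a median GC share of 52.6%, with a range from 36.8 to 84.2%. The median was 42.3% in predicted rows of 20 to 24 nt, 45.2% in those of 25 to 32 nt, 46.7% in the 183 known rows of 15 to 19 nt and 44.2% in the longer known rows. Rows are not replicates and the difference was not tested. The most GC-rich members were PC-3p-9854_63 at 84.2%, PC-3p-33289_12 at 78.9% and PC-5p-637_2231 at 72.2%, while PC-3p-1631_633 and PC-3p-6947_100 had 36.8% each. Weighted by counts, the members' GC share was 47.8%, since PC-5p-171_12656 has 44.4%.

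The first base was A in 7 members, C in 7, T in 6 and G in 3. T, the first base that Argonaute proteins of animals often favour in miRNAs, thus opened 26.1% of the members, against 47.8% of predicted rows of 20 to 24 nt and 42.3% of known rows of 20 to 32 nt. Counted by reads, C opened 89.1% of the members' counts and T 7.30%, because both PC-5p-171_12656 and PC-5p-637_2231 begin with C. Known rows of the same 15 to 19 nt were much like the members, with T first in 32.2% of rows, and C in 90.4% and T in 8.13% of counts, 90.0% of which came from 1 row. The last base was T in 12 of the 23 members.

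By arm label 9 members were 5p and 14 were 3p. The 5p members held 93.4% of the counts and the 3p members 6.59%, whereas predicted rows of 20 to 24 nt divided into 48.0 and 52.0% of their counts. Predicted rows of 25 to 32 nt also leaned to 5p, with 82.4% of their counts and 12 of their 15 rows. The 5p share of the members' counts was lowest in control replicate 6, at 84.4%, and highest in fasted replicate 3, at 95.8%. Without PC-5p-171_12656, which is itself a 5p row, the largest remaining 5p members were PC-5p-637_2231, PC-5p-1386_780 and PC-5p-4744_165, with 345 counts.

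One member was nearly a copy of a known miRNA. The first 16 bases of PC-5p-1386_780 equal the first 16 of dre-miR-122_R-1, the main row of miR-122, which is the dominant miRNA of hepatocytes. They are printed here with the shared run in capitals, to show where they part.
PC-5p-1386_780: TGGAGTGTGACAATGGaaa
dre-miR-122_R-1: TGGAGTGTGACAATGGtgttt

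The member ends in 3 bases that 0 of the other rows carry after this run, and it has the seed of miR-122. In all, 6 rows named miR-122 shared the run of 16. The other 22 members shared at most 11 bases in a row with any other row of the table, and 0 members lay whole within another row or held one. The longest stretch of a member complementary to another row was 11 bases.

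The level of PC-5p-1386_780 relative to that of miR-122 varied between libraries. Its counts were 0.0178, 0.0189 and 0.0599% of those of dre-miR-122_R-1 in the controls, and 0.0321, 0.0493 and 0.0232% after fasting. The groups overlap, and control replicate 6 is the highest of the 6. The mean percentages were 0.0322 ± 0.0240 for control and 0.0349 ± 0.0133 for fasted liver (SD, n = 3). As a share of mappable reads, this member and the rows named miR-122 were each highest in control replicate 6 and lowest in fasted replicate 3. The miR-122 row itself took between 34.9 and 42.3% of the table's counts, so that this hepatocyte marker was abundant in every library. Of mappable reads the rows named miR-122 held 15.8, 22.6 and 23.1% in the controls and 6.41, 17.9 and 12.5% after fasting. The groups overlap on that scale. Of the families that mark other cells, miR-451 and miR-144 of erythrocytes held 0.114 to 0.898% of the table's counts and miR-1, miR-133 and miR-206 of muscle at 8.7e-04 to 0.0167%.

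Libraries differed in depth and in make-up. The table's counts ran from 737686 in fasted replicate 3 to 4203708 in control replicate 3, so that a count of 3, taken as the floor, was worth between 0.714 and 4.07 CPM, which are counts scaled to a library total of 1000000. Fasted replicate 3 stood apart: its table counts were 15.1% of its mappable reads, against 34.9 to 61.0% in the other libraries, and its TMM factor, a scaling that allows for differences in composition, was 1.64 against 0.762 to 1.21. Values are therefore given as TMM-scaled CPM and also as mappable-read CPM, which are scaled by the mappable reads of a library. That total includes the table's own reads as well as reads outside it. In whole liver fewer cells of a type and less of an RNA per cell cannot be told apart.

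The members took a larger part of every fasted library than of any control library. Their summed share of the table's counts was 0.139% in control replicate 3 (95% Wilson interval 0.136 to 0.143%), 0.0448% in replicate 4 (0.0408 to 0.0491%) and 0.0725% in replicate 6 (0.0700 to 0.0751%). The fasted libraries had 1.14% (1.11 to 1.16%), 0.165% (0.158 to 0.172%) and 0.394% (0.383 to 0.405%). The intervals cover counting error only, and the spread between libraries is far wider. The group means were 0.0856% ± 0.0486 and 0.566% ± 0.509 (SD, n = 3), and no test was made of a sum over members chosen with results known. Fasted replicate 3 decides much of the size: the difference of 0.480 percentage points was 0.194 without it.

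As a share of mappable reads the order of the groups was the same with a smaller gap. The members held 0.0627, 0.0253 and 0.0442% of the controls and 0.171, 0.0788 and 0.138% of the fasted libraries. The ratio of the means was 2.93, against 6.61 by table counts. Over the same libraries the predicted rows of 20 to 24 nt had a mean share of mappable reads of 0.0510% ± 0.0062 for control and 0.0400% ± 0.0076 for fasted liver (SD, n = 3). By table counts the direction was the other way, with 0.0969% ± 0.0263 and 0.148% ± 0.0748 and a ratio of means of 1.53. There 2 of the 3 fasted libraries were above every control library. The predicted rows of 25 to 32 nt, like the members, had every fasted library above every control library on both scales, with ratios of means of 1.59 by mappable reads and 3.32 by table counts. For the known rows of 15 to 19 nt the ratios were 2.18 and 5.51, with overlapping groups.

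Most of the summed difference lay in 1 sequence, which accounted for 0.422 of the 0.480 percentage points. PC-5p-171_12656 made up 76.5, 42.0 and 45.2% of the members' counts in the controls and 87.5, 70.9 and 79.2% after fasting. The other 22 members together held 0.0147, 0.0147 and 0.0242% of mappable reads in the control libraries and 0.0215, 0.0229 and 0.0287% in the fasted libraries. On this scale the groups overlap, with fasted replicate 5 alone above every control library, and the ratio of means was 1.36. Of the table's counts these 22 members held 0.0327, 0.0260 and 0.0397% in the controls and 0.143, 0.0480 and 0.0820% after fasting. By that measure every fasted library was above every control library, with a ratio of means of 2.77.

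**Figure D2:**
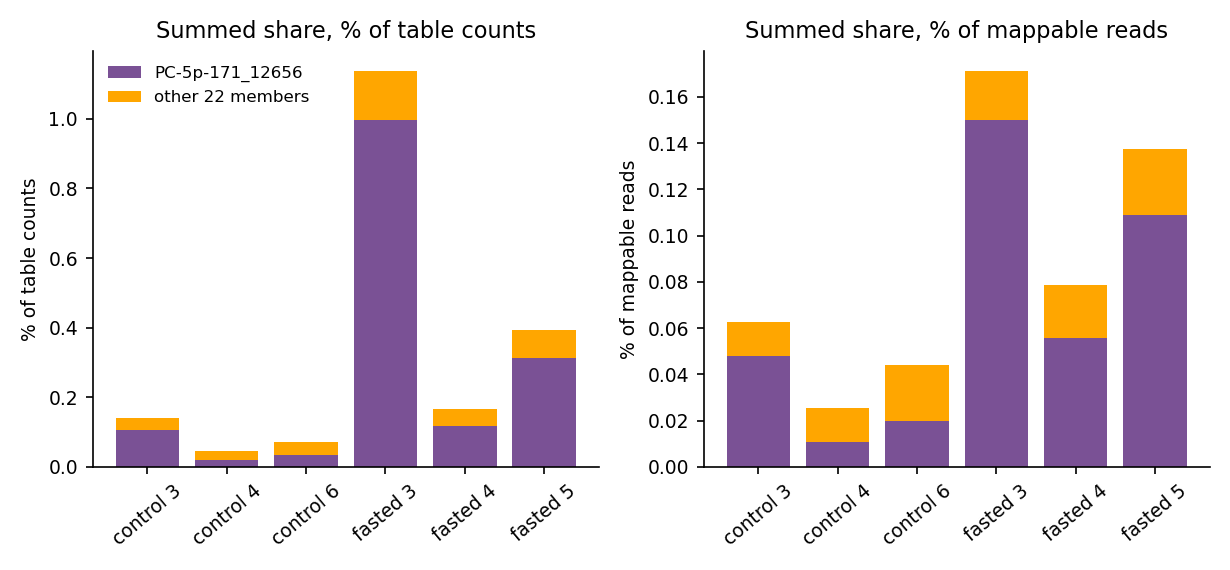
Summed share of the 23 members in each library as a percentage of the table's counts (left) and of mappable reads (right), with PC-5p-171_12656 in purple and the other 22 members in orange. Each fasted bar is above each control bar on both scales, and the orange part differs less than the purple part.

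The level of single members was tested in the edgeR fit of the whole table. Of the 309 rows with enough counts 0 were called at a Benjamini-Hochberg adjusted p of 0.05, or 0%, and so 0 of the 7 members tested were called. Before adjustment 26 rows, or 8.41%, had a p under 0.05. Of these, 15 were higher after fasting, or 4.85% of the rows tested, and 3 of the 15 were members. DESeq2 called 4 rows and limma on the authors' normalized values 0. edgeR on the table without the count filter called 3 of the 23 members, all higher, against 0.453% of 1325 rows called higher. The fitted log2 fold change of fasted over control lay above 0 in 5 of the 7 members and in 155 rows, or 50.2%, with medians of 1.22 and 0.01. The filter asks for counts in 3 libraries, so that a member high in 1 group can pass through that group. These 7 do not stand for the 16 members that did not pass it.

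PC-5p-171_12656 was the most abundant member and its groups did not overlap. The controls held 480.2, 106 and 199.9 mappable-read CPM of it, and the fasted libraries 1499, 558 and 1089.9. Each fasted library was above each control library, though fasted replicate 4 was not far above control replicate 3. On the log2 scale it was higher by 2.41 (SE 0.76, 95% interval 0.67 to 4.15, edgeR adjusted p = 0.504). DESeq2, which called 0.971% of the tested rows higher, called this one at 2.48 (adjusted p = 0.021). Without fasted replicate 3 the TMM-scaled edgeR value was 1.71 and without control replicate 3 it was 3.34.

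PC-3p-9854_63, 84.2% GC, had nearly equal control values. Its TMM-scaled level was 27.5, 24.4 and 30.4 CPM in the controls, and 210.04, 59.9 and 82.7 CPM after fasting. All fasted libraries lay above the controls, with fasted replicate 3 more than the rest. The means were 27.5 ± 2.99 and 118 ± 80.9 CPM (SD, n = 3), which edgeR fitted as 2.09 on the log2 scale (SE 0.51, adjusted p = 0.450). It was the second member called higher by DESeq2, at 2.13 (adjusted p = 0.021), and edgeR gave 1.45 without fasted replicate 3.

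PC-5p-637_2231, the second most abundant, reached 189.7, 136 and 69.6 CPM in the controls and 342, 189.1 and 386 CPM after fasting. Fasted replicate 4 lay just under control replicate 3, so the groups touch. In mappable-read CPM its lowest fasted value, 81.02, was above its highest control value, 75.3. The fitted log2 difference was 1.22 (SE 0.47, edgeR adjusted p = 0.519).

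PC-3p-6947_100 was low, with 10.3, 9.77 and 12.2 CPM in the controls and 35.6, 20.2 and 12.5 CPM after fasting. The groups do not overlap on this scale, but fasted replicate 5 is hardly above control replicate 6, and in mappable-read CPM it is below it (5.28 against 5.67). Its log2 difference was 1.06 (SE 0.46, edgeR adjusted p = 0.557).

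PC-5p-4744_165 had the widest spread. It had 95, 1 and 13 counts in the controls and 180, 12 and 44 counts after fasting. Its highest library was 121.9 times its lowest in CPM, but the lowest, control replicate 4, had 1 count, under the floor of 3. With 25.6 CPM control replicate 3 lay between fasted replicate 4 (9.34 CPM) and fasted replicate 5 (30.6 CPM), so the groups overlap. The log2 fold change of 2.48 had an SE of 1.14 (adjusted p = 0.583 by edgeR), and it was 0.89 without fasted replicate 3 and 4.31 without control replicate 3.

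The other tested members had values below 0. PC-5p-1386_780, the sequence like miR-122, reached 70.4, 90.3 and 297 CPM in the controls and 82.7, 205 and 68.1 CPM after fasting, with a fitted value of -0.37 on the log2 scale (SE 0.65, edgeR adjusted p = 0.901). PC-3p-1631_633 had 36.4, 37.8 and 98.1 CPM in control and 21.5, 36.6 and 86.2 CPM in fasted liver, with -0.26 (SE 0.61, edgeR adjusted p = 0.914). In both the groups overlap and control replicate 6 is the highest library. When scaled by library totals alone both values turned, to 0.14 and 0.31.

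**Figure D3:**
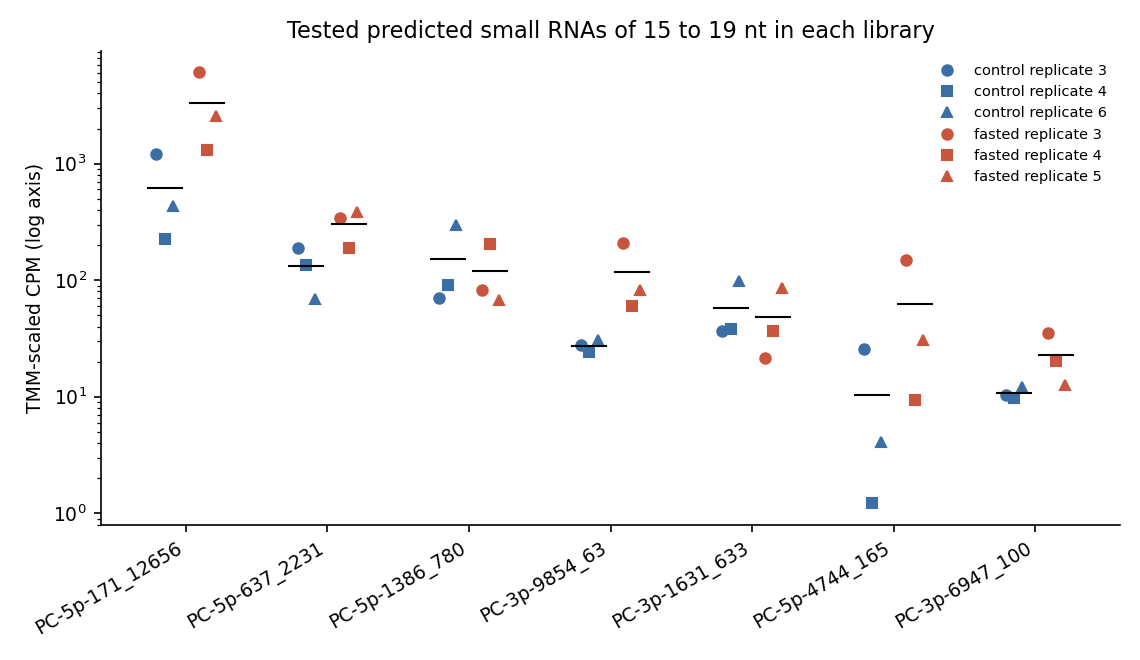
TMM-scaled CPM on a log axis of the 7 tested members in each of the 6 libraries, with a black line at the group mean. The groups do not overlap for PC-3p-6947_100, PC-3p-9854_63 and PC-5p-171_12656, and fasted replicate 3 is the highest library in these.

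All 3 fasted libraries lay above all 3 control libraries in 3 of the 7 tested members, against 8.74% of all tested rows. They lay wholly below in 0 of the 7, where the share of all tested rows was also 8.74%. Among 7 members, 0 is near that share. In mappable-read CPM the fasted libraries again lay wholly above in 3 of 7, against 2.59% of the tested rows, with PC-5p-637_2231 in place of PC-3p-6947_100. On the same log2 scale as above, the scaling moved the members and the rest of the table together. With the library total the median of the 7 was 1.84 and that of all 309 rows 0.59, and with mappable reads as library size they were 0.94 and -0.27. Of the classes nearest in kind, predicted rows of 20 to 24 nt had 8 of 24 tested rows above 0 (median -0.27), predicted rows of 25 to 32 nt 5 of 6 (median 0.77) and known rows of 15 to 19 nt 2 of 5 (median -0.52). Non-overlap with the fasted libraries above was found in 3 of the 6 tested predicted rows of 25 to 32 nt, 3 of the 24 of 20 to 24 nt and 0 of the 5 known rows of 15 to 19 nt. Differences between these classes were not tested.

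**Figure D4:**
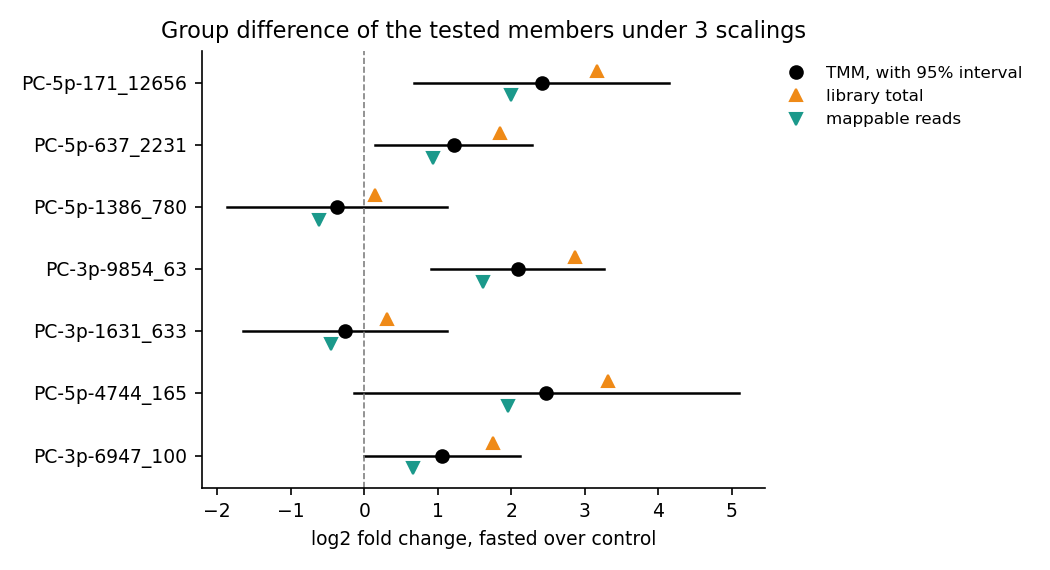
Log2 fold change of fasted over control for the 7 tested members from edgeR, with TMM scaling and its 95% interval (black), library totals (orange) and mappable reads as library size (green). The intervals of PC-5p-171_12656, PC-5p-637_2231 and PC-3p-9854_63 stay above 0 before adjustment over 309 rows, and the 2 members below 0 cross it with library totals.

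Reads too short for the table moved with some of the members. Reads under 15 nt after adaptor removal were 9.74, 3.57 and 5.31% of adaptor reads in the controls and 12.6, 5.19 and 10.03% after fasting. The libraries with the highest share, fasted replicates 3 and 5, also had the highest PC-5p-171_12656 and PC-5p-4744_165, and control replicate 4, with the lowest share, had the lowest of both. Between these the order broke: PC-5p-171_12656 was higher in fasted replicate 4 (558 mappable-read CPM) than in control replicate 3 (480.2), which had more short reads. PC-5p-4744_165 was likewise higher in fasted replicate 4 (4.00) than in control replicate 6 (1.89), which had slightly more short reads. PC-3p-9854_63 was lowest in control replicate 3 (10.9) and PC-5p-637_2231 in control replicate 6 (32.3), neither of which had the lowest share. Rows named mir-7641 held 0.129, 0.0063 and 0.0247% of mappable reads in the control and 0.267, 0.0197 and 0.114% in the fasted libraries, also with fasted replicate 3 highest and control replicate 4 lowest. PC-5p-1386_780 had its lowest mappable-read CPM, 20.4, in fasted replicate 3, where the rows named miR-122 were also lowest, at 6.41% of mappable reads. In TMM-scaled CPM its lowest library was instead fasted replicate 5 (68.1 CPM, against 82.7 in fasted replicate 3). The part of short reads in these values was not tested.

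**Figure D5:**
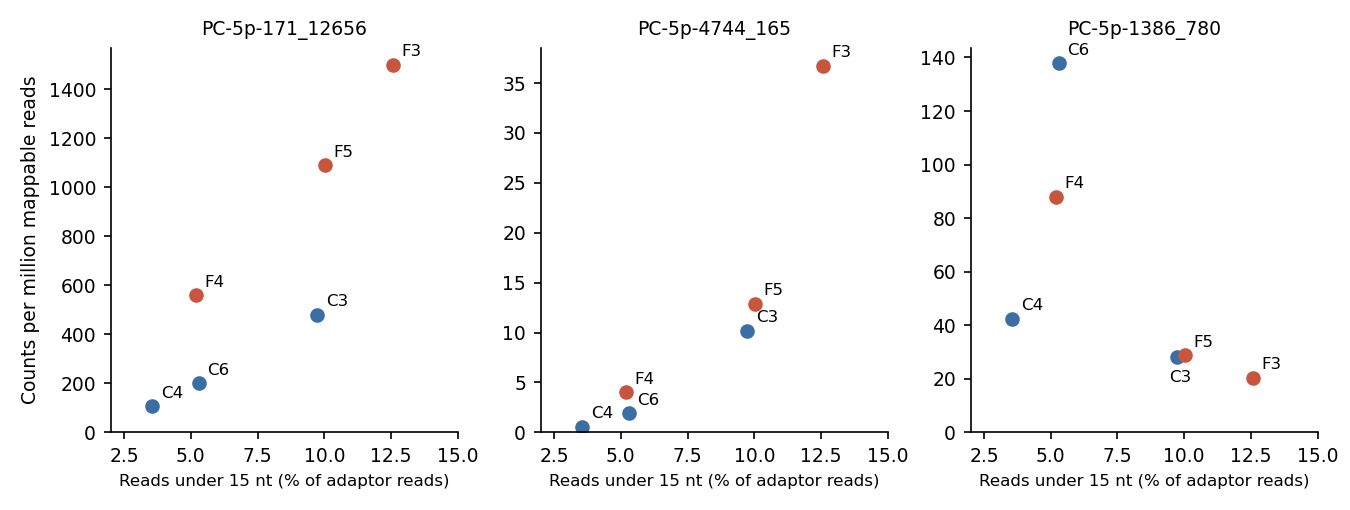
Mappable-read CPM of 3 members, chosen after their values were seen, against reads under 15 nt as a percentage of adaptor reads in each library (C control, blue; F fasted, red; digits give the replicate). PC-5p-171_12656 and PC-5p-4744_165 are highest in fasted replicate 3 at 12.6%, where PC-5p-1386_780 is lowest on this scale.

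The other 16 members had too few counts to pass the filter of the main fit. They entered only the edgeR fit without that filter, and the 3 members called there were not among them. Whether a group difference in them could be detected at this depth was not assessed. PC-3p-19930_24, the 17 nt member, had 8, 0 and 1 counts in the controls and 20, 2 and 11 after fasting. Its highest libraries were those of PC-5p-4744_165. PC-3p-33289_12 (78.9% GC) had 6, 1.5 and 4 counts in control and 6, 4.5 and 3 in fasted liver, from libraries of unequal depth. Scaled by library totals alone, these were 1.43, 1.53 and 0.955 CPM against 8.13, 3.14 and 2.52 CPM, with every fasted library higher. In mappable-read CPM the groups overlap, with 0.643, 1.15 and 0.582 against 1.22, 1.33 and 0.880. Counts this near the floor do not settle a difference. PC-5p-44022_8 had 6, 2 and 4 counts in control and 0, 8 and 1 in fasted liver. In 3 members, PC-3p-85622_3, PC-3p-84628_3 and PC-3p-60637_5, counts were found in control libraries alone, with at most 3 counts in all, and 0 members had counts in fasted libraries alone. With so few counts their absence from the fasted libraries lies within the floor of 3 counts per library. Of the 23 members 8 were detected in all 6 libraries, or 34.8%, against 17.5% of predicted rows of 20 to 24 nt, 46.7% of those of 25 to 32 nt, 6.01% of known rows of 15 to 19 nt and 48.6% of longer known rows. The number detected per library ran from 13 to 19.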

How the data were processed

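The members and lists were chosen with earlier results of these data known. Per the labels' protocols, livers were frozen, RNA was taken up in Trizol and libraries were made with a TruSeq RNA kit. The submitters' processing notes name Bowtie 1.1.1. Neither its settings, nor a counter, nor a build is given in the sources used here. The authors deposited a read summary with the count of reads at each step, and per its headers reads of 15 to 32 nt were kept after adaptor removal. In the small RNA table the authors deposited expected counts under the prefix raw, since 26.0 to 31.2% of a library's values above 0 were not whole (tolerance 1e-06). The normalized signal the authors deposited is the expected count divided by a library size parameter of 0.506 to 2.30.

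Expected counts were rounded and all 1427 rows entered edgeR 4.0.16 (R 4.3.3; quasi-likelihood F test, TMM, no covariate). filterByExpr (minimum count 10, minimum total 15) kept 309 rows, 7 of them members, and Benjamini-Hochberg adjustment ran over these 309. The script was tested on simulated data. DESeq2 1.42.0 and limma 3.58.1 (log2 of signal + 1) were alternatives, as were other scalings, no filter, a replicate block and leaving out each library. Shares use unrounded counts, and a shared run is an exact match of at least 14 bases. Named members were those tested and the 10 of the largest mean share, with the most abundant of each length; rules for contained members and for members seen in every library of 1 group and in 0 of the other named 0. No pair of libraries of a group was a duplicate (smallest chi-square per degree of freedom 149.8).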

Additional observations from a re-analysis of the deposited data

How the results depend on the processing

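In every edgeR fit of the 309 rows, and with limma, 0 rows and 0 members were called, and leaving out each library gave 0 to 0 calls of both. DESeq2 called 4 rows, 2 of them members (PC-5p-171_12656 and PC-3p-9854_63). edgeR without the count filter called 11 of 1325 rows and 3 of 23 members: PC-5p-171_12656 (adjusted p = 0.000722), PC-5p-4744_165 (0.00359) and PC-3p-9854_63 (0.0176). In that fit the members' median was -0.27, beside -0.23 for all rows, over members that mostly have few counts. In the other alternatives it stayed above 0, between 0.89 without fasted replicate 3 and 1.84 with library totals, and leaving out each library gave 0.89 to 1.59. The difference in summed share was 0.480 percentage points of the table's counts, and 0.0580 without PC-5p-171_12656. Of mappable reads it was 0.0852 points, and 0.0065 without PC-5p-171_12656, the last chosen after seeing the data. Mappable reads are the larger total, so the points of the 2 shares are not on the same scale. The ratio of means was 6.61 by table counts and 2.93 by mappable reads. Leaving out each library gave 0.194 to 0.681 points of the table's counts.

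The 5 tested members with values above 0 kept that sign in all 14 alternatives. PC-5p-1386_780 turned to 0.14 with library totals and 0.70 with the replicate block, and PC-3p-1631_633 to 0.31 with library totals; leaving out each library gave -1.02 to 0.57 and -0.86 to 0.38. The cause was not tested. The groups share the replicate numbers 3 and 4, which the labels give no meaning beyond a name, and same-numbered libraries deviated from their group means with correlations of 0.44 and -0.04 across rows. With the replicate block the group difference came from numbers 3 and 4 alone, because no other number occurs in both groups. Under this block 0 rows were called, the members' median was 1.49 and the summed share differed by 0.560 percentage points within the numbers.

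Depth limits the 16 members that did not pass the count filter, and the median 95% interval of a tested row reached 1.00 on the log2 scale to either side.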
